A study of Solanum virginianum with 36 samples.

Results

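The comparison set 3 leaf libraries of a thrips-resistant eggplant line against 3 leaf libraries of a thrips-susceptible line, all labelled 0 h of feeding by western flower thrips. They are 6 of the 36 libraries of the series, chosen by their column names (resistant and susceptible at 0 h, replicates 1 to 3). The other 30 libraries cover both lines at 4, 8, 12, 24 and 48 h. The libraries at 0 h carry the same treatment label as the later ones, so that they precede feeding rests on the time alone. The organism is labelled Solanum virginianum, while the text of the series speaks of eggplant. The labels give the lines by their resistance only, without a cultivar name or pedigree. They call the replicates biological and do not say whether each came from its own plant. The p-values of edgeR's fit rest on the spread between libraries, estimated over all 12 groups of the series, which may not be that between plants.

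Western flower thrips pierce leaf cells and suck out their contents. Plants meet such insects with defences that are in place before an attack (leaf hairs, waxes and stored metabolites) and with defences induced by it, largely under the hormone jasmonate. The title of the series concerns quinic acid, a product of a side branch of the shikimate pathway. Joined to caffeic acid it forms chlorogenic acid, the main soluble phenolic compound of eggplant. A difference between lines at 0 h bears on the first kind of defence, along with any other way in which the lines differ. The files give gene IDs without names or functions, so genes of these pathways could not be picked out, and the leaf label could not be checked against marker genes.

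Estimated counts over rows with an ID came to 30629392 to 41243395 per resistant library and 35260628 to 42391553 per susceptible library. A count was found for 22307 to 23095 IDs in the resistant libraries and for 24173 to 24424 in the susceptible libraries. The means were 22601 ± 430.4 in the resistant and 24266 ± 138 in the susceptible line (SD, n = 3 each), without overlap (exact two-sided permutation test, p = 0.1, the smallest that 3 against 3 allows). With at least 10 counts required, the means were 19133 ± 413 IDs in the resistant line and 20281 ± 45.0 in the susceptible line (SD, n = 3 each). The 10 most abundant IDs took 6.90 to 7.80% of the counts in resistant and 7.18 to 8.35% in susceptible libraries. Across the 23719 genes tested, log2 CPM (counts scaled to a common normalized library size) correlated at 0.971 to 0.973 within the resistant and at 0.965 to 0.970 within the susceptible line. Between lines the correlation was 0.883 to 0.898.

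The lines differed in a large share of the genes measured in leaf before feeding. Of 23719 genes, 8218 (34.6%) passed edgeR's quasi-likelihood test at an adjusted p under 0.05. The resistant line was higher in 3617 of them (15.2% of those tested) and lower in 4601 (19.4%). In 7665 of the 8218 (93.3%), no resistant library overlapped with a susceptible one, against 10763 of all tested genes (45.4%). The 553 genes that passed with overlapping libraries drew on the spread estimated over all 12 groups of the series. As the RNA comes from whole leaf, more RNA per cell and more cells that express a gene cannot be told apart.

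**Figure D1:**
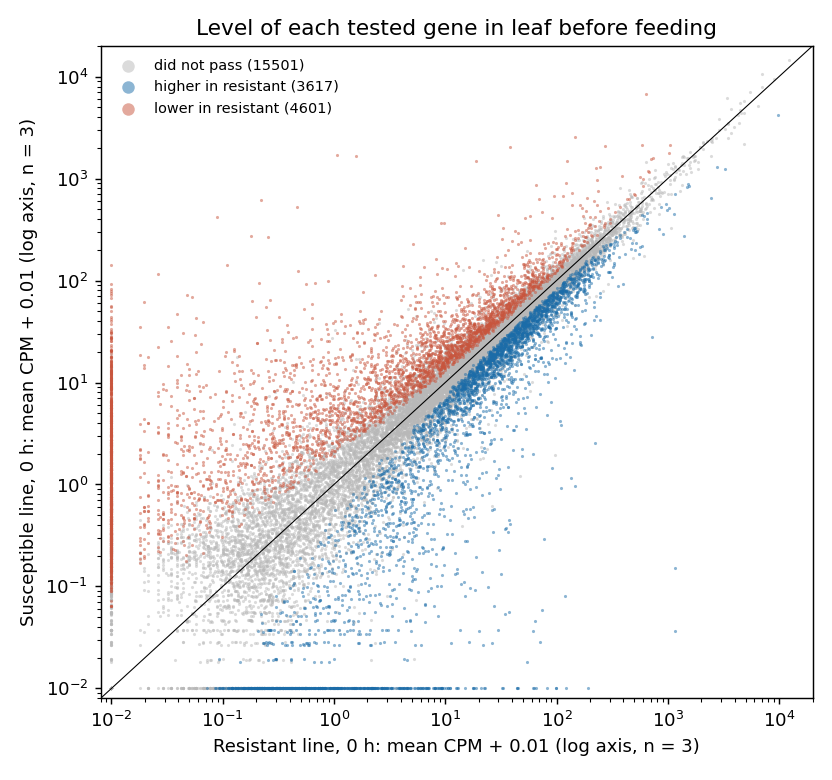
Mean CPM of each of the 23719 tested genes in the 3 resistant (horizontal) and the 3 susceptible (vertical) libraries at 0 h, both on log axes with 0.01 added, so that genes without a count lie on the margins. Blue points (3617) passed as higher and red points (4601) as lower in the resistant line; the black line marks equal levels, and the red cloud reaches farther from it than the blue one.

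Among genes that passed, differences in which the resistant line was lower were larger than those in which it was higher. Tested against a minimum change of 2-fold (edgeR's test relative to a fold threshold), 3704 genes passed (15.6%). These were 1269 genes higher in the resistant line (5.35%) and 2435 lower (10.3%), so 34.3% were higher, against 44.0% of all genes that passed without the minimum. Fitted log2 fold changes had a median of 1.25 among the 3617 higher genes (interquartile range 0.68 to 3.75) and of -2.55 among the 4601 lower genes (-6.54 to -1.03). Some of these fitted values belong to genes without a count in a line, 591 of the higher and 1349 of the lower ones, where the fit gives no bound. With those genes set to a floor of 3 counts over the 3 libraries, the medians were 1.25 for the higher and -2.44 for the lower genes. On that scale 606 of the higher (16.8%) and 1345 of the lower genes (29.2%) differed by at least 16-fold. Among genes with counts in both lines, the medians were 1.02 for 3026 higher and -1.46 for 3252 lower genes. The size of a passing difference also went with the mean CPM over all 36 libraries. Its median absolute log2 fold change was 6.44 between 0.1 and 1 CPM (smallest 0.89). Between 10 and 100 CPM it was 0.82 (smallest 0.23). Lower genes led among weak ones, so these medians mix size with level, and sizes at equal level were not compared.

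The direction of the difference went with the mean level of the gene over both lines. Genes were divided by their mean CPM over all 36 libraries. A gene near 0 in a line thus falls lower than its level in the other line. Genes that passed without a count in a line were mostly lower ones, as given above. Between 0.1 and 1 CPM, of 4951 genes the resistant line was higher in 641 and lower in 1241, so 34.1% of those that passed were higher. Between 1 and 10 CPM the numbers were 949 higher and 1552 lower of 6434, or 37.9% higher. Between 10 and 100 CPM the order turned, with 1693 higher and 1521 lower of 9715, or 52.7% higher. Between 100 and 1000 CPM, 268 of 1907 genes were higher and 192 lower, or 58.3% higher. Only 12 of the 82 genes over 1000 CPM passed, 6 in each direction. Without a minimum fold, the split was tilted to the susceptible line among genes of low mean CPM and slightly to the resistant line among abundant ones. Against the minimum of 2-fold, lower genes led among abundant ones too, with 244 higher and 395 lower between 10 and 100 CPM. Between 100 and 1000 CPM, 19 were higher and 41 lower by that test.

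**Figure D2:**
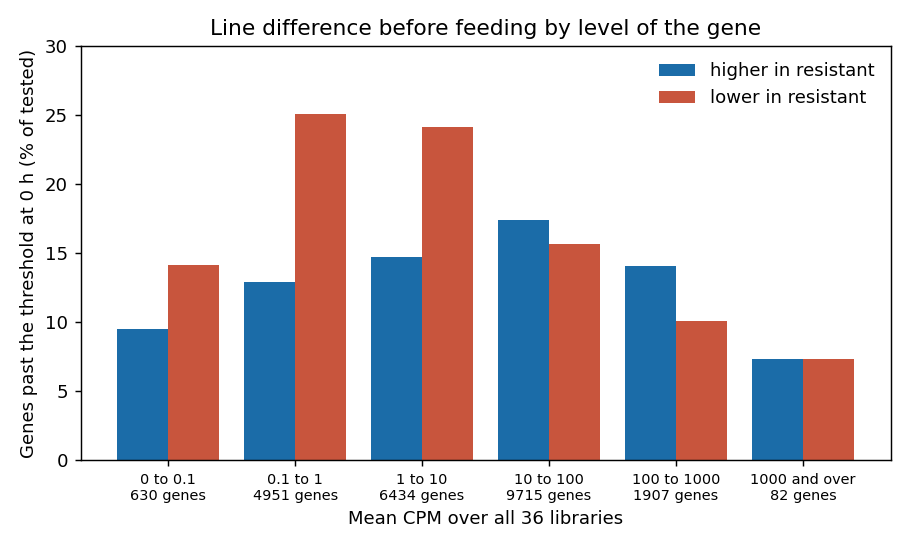
Share of tested genes that passed at 0 h as higher (blue) or lower (red) in the resistant line, in percent, by the gene's mean CPM over all 36 libraries, with the number of genes under each pair of bars. The red bar is the taller one below 10 CPM (25.1% against 12.9% higher between 0.1 and 1 CPM), and the blue bar is the taller one between 10 and 1000 CPM.

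Genes were also taken by their level in each library at 0 h. This grouping uses the 6 libraries that give the direction, so it adds no separate support. Of 14795 genes with at least 1 CPM in each of the 6 libraries at 0 h, 29.5% passed, 2261 higher and 2104 lower in the resistant line. Their differences were small, with median log2 fold changes of 0.78 for the higher and -0.97 for the lower genes. The minimum of 1 CPM itself limits the fold, since it leaves out genes near 0 in either line. Only 9 of the higher and 26 of the lower ones reached 16-fold. Against the minimum of 2-fold, 262 of the 14795 genes passed as higher and 426 as lower. The remaining 8924 genes, weak or missing in at least 1 library, gave 1356 higher and 2497 lower, or 35.2% higher. Among them are all genes that passed without a count in a line, 591 higher and 1349 lower. Their share thus partly restates the IDs found in 1 line only. The split into higher and lower genes differed on FPKM, tested with limma. On FPKM as deposited (log2(FPKM + 1), mean FPKM of at least 1), 2479 genes were higher and 1871 lower, which is 57.0% higher, with a median log2 difference over all 12461 genes of 0.09. Without the filter on low values, which took out weakly expressed genes, 2964 were higher and 3002 lower of 24518, or 49.7% higher. Scaled by TMM factors, with the filter, the FPKM gave 1994 higher and 2255 lower, or 46.9% higher, with a median of 0.00.

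At the far end stood genes found in 1 line only. Over all IDs of the table, 22597 had a count in both lines at 0 h, 2208 in the resistant line alone and 4218 in the susceptible line alone. With at least 30 counts over the 3 libraries required, 464 IDs were found in the resistant line alone and 1237 in the susceptible line alone. A value of 0 stands alike for a gene the line lacks, a gene that is not transcribed there and a gene whose reads were not assigned to its ID, and these cannot be told apart in the deposited values.

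A stricter list took IDs at 0 in all 3 libraries of a line and at 1 CPM or more in each library of the other. It held 151 IDs for the resistant line, with means of 1.15 to 193 CPM there (median 3.91). They were at least 43.6-fold to at least 7338-fold higher in the resistant line, against the floor of 3 counts over the susceptible group. It held 445 IDs for the susceptible line, with means of 1.10 to 142 CPM there (median 4.01). These were at least 39.0-fold to at least 5019-fold lower in the resistant line. The lists rest on 6 libraries, so they were followed into the other 30.

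Most of the IDs without a count at 0 h, though not all, had little or no count in that line at the later times. Of the 151 IDs, 87 (57.6%) had no count in any of the 15 later susceptible libraries, and 125 had a mean under 0.1 CPM at each later time. Of the 445 IDs, 147 (33.0%) had no count in any of the 15 later resistant libraries, and 352 stayed under 0.1 CPM at each later time. Another 182 of them had a count in a single later resistant library, and for 156 of these it was replicate 3 at 48 h. Without that library, those 156 IDs join the ones without a count, so that 303 of the 445 (68.1%) had none in any later resistant library. For the 151 IDs no library was left out. A later mean of 1 CPM or more was reached by 7 of the 151 IDs in the susceptible line and by 9 of the 445 in the resistant line, with the highest mean at 70.7 CPM in the susceptible and 18.8 CPM in the resistant line. In the line that had them at 0 h, 142 of the 151 and 420 of the 445 had a count in all 15 later libraries.

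Sme2.5_14644.1_g00002 had the highest mean in the resistant line among IDs without a count in the susceptible line at 0 h. It had 163, 242 and 175 CPM in the 3 resistant libraries and no count in the 3 susceptible ones. The mean of 193 ± 42.7 CPM (SD, n = 3) was at least 7338-fold above the floor of the susceptible group. The ID was picked by these same values at 0 h. Its edgeR adjusted p there (1.9e-07) was thus largely set by the choice and adds no support. In the 15 later libraries of each line it ranged from 30.2 to 208 CPM in the resistant line (median 81.4) and from 0 to 0.439 CPM in the susceptible line, where 4 libraries had a count. The lines did not overlap at any later time, and at 0 h the lack of overlap followed from the choice.

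Sme2.5_00758.1_g00014 had the largest fold in favour of the resistant line among IDs with at least 1 CPM in each library at 0 h. It had 212, 175 and 279 CPM in resistant libraries, against 2.56, 4.04 and 1.01 CPM in susceptible ones. Resistant libraries averaged 222 ± 52.7 CPM and susceptible libraries 2.54 ± 1.52 CPM (SD, n = 3 each). The log2 fold change was 6.45 ± 0.70 (SE, edgeR adjusted p = 5.2e-08). The ID was picked for its fold at 0 h, so that p was largely set by the choice. On the per-length scale it had 79.3, 65.5 and 101 FPKM in the resistant line and 0.868, 1.46 and 0.343 FPKM in the susceptible line. Both lines thus had counts for it, far apart. Whether the low counts of the susceptible line are reads of a similar ID was not tested. Later resistant libraries lay between 160.4 and 598 CPM, and later susceptible ones between 0.0696 and 3.76 CPM.

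In the other direction, Sme2.5_00235.1_g00003 had the highest mean in the susceptible line among IDs without a count in the resistant line at 0 h. It had no count in the 3 resistant libraries and 206, 126 and 92.3 CPM in the susceptible ones. It was at least 5019-fold lower in the resistant line than the susceptible mean of 142 ± 58.4 CPM (SD, n = 3). This ID too was picked by its values at 0 h. Its edgeR adjusted p there (3.0e-06) was thus largely set by the choice and adds no support. In the resistant line it had a count in 1 of the 15 later libraries, at 0.688 CPM, and that library was replicate 3 at 48 h. Later susceptible libraries ranged from 28.9 to 593 CPM (median 188). At 48 h the susceptible mean was 42.9 ± 14.9 CPM and at 24 h 417 ± 208 CPM (SD, n = 3 each), so its level moved within the line that has it.

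Sme2.5_03183.1_g00006 had the largest fold in favour of the susceptible line among IDs with at least 1 CPM in each library at 0 h. It had 6.09, 40.7 and 9.34 CPM in resistant libraries, against 2169, 1501 and 761 CPM in susceptible ones. Resistant libraries averaged 18.7 ± 19.1 CPM and susceptible libraries 1477 ± 704 CPM (SD, n = 3 each). The log2 fold change was -6.30 ± 0.68 (SE, edgeR adjusted p = 5.0e-08). As the ID was picked for its fold at 0 h, p-values at that time were largely set by the choice. Replicate 2 of the resistant line was several times above its fellows, and without it the log2 fold change was -7.60 (edgeR adjusted p = 1.5e-08). FPKM were 3.26, 21.9 and 4.92 in the resistant line and 1043, 783 and 381 in the susceptible line. The groups stayed far apart at each later time, with 3.15 to 13.5 CPM in the 15 later resistant and 146 to 1669 CPM in the 15 later susceptible libraries.

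**Figure D3:**
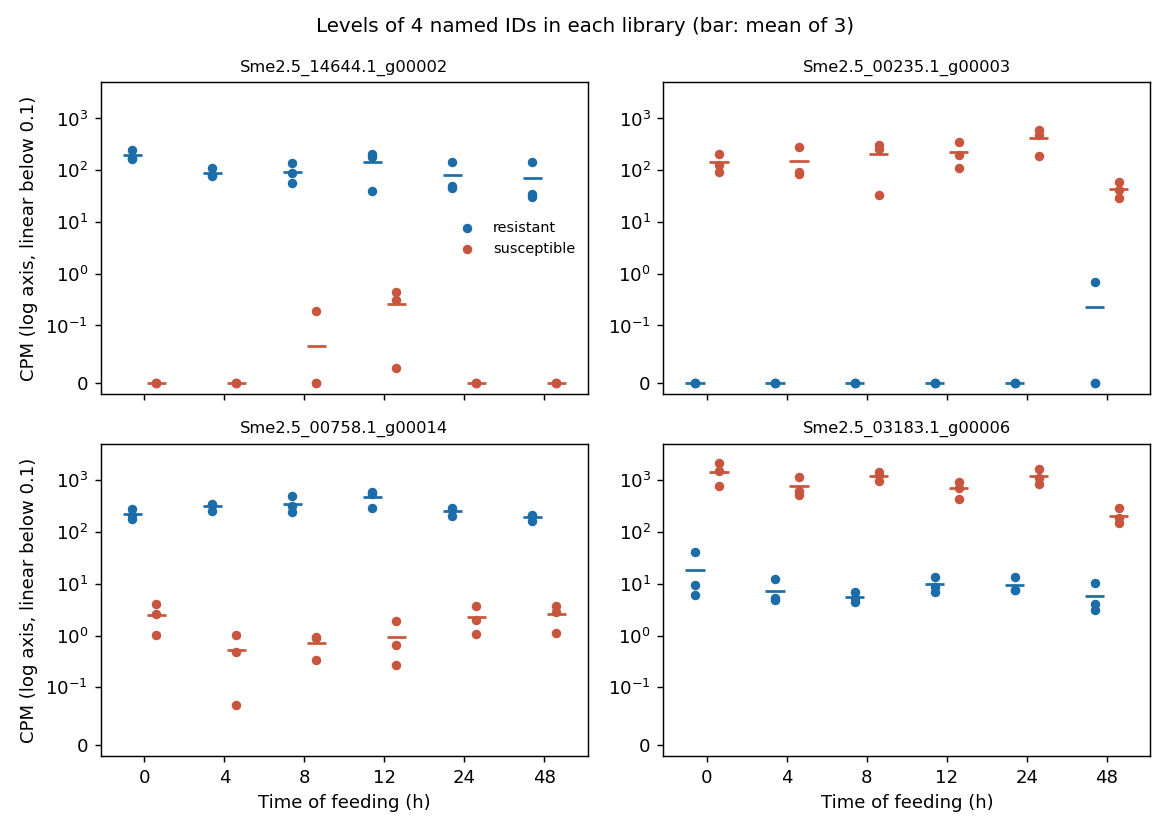
CPM of the 4 named IDs in each library (points) with the mean of 3 libraries (bars), by hours of feeding, on a log axis that is linear below 0.1; blue is the resistant and red the susceptible line. The lines do not overlap at 0 h, by which the IDs were picked, or at any later time in any of the 4 panels. Resistant replicate 2 of Sme2.5_03183.1_g00006 at 0 h stands at 40.7 CPM above 6.09 and 9.34 CPM.

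The differences at 0 h were then looked for in the 30 later libraries. These are outside the contrast at 0 h but entered its filter, scaling and estimate of the spread. The line difference averaged over 4 to 48 h passed edgeR's test for 15966 genes (67.3%), 7457 higher (31.4%) and 8509 lower (35.9%) in the resistant line. With 15 libraries per line, this contrast can pass smaller differences than 3 against 3. Of the 3617 genes higher in the resistant line at 0 h, 3357 (92.8%) passed as higher later on, 249 did not pass and 11 passed as lower. Of the 4601 genes lower at 0 h, 4335 (94.2%) passed as lower later on, 257 did not pass and 9 passed as higher. Both calls came from 1 fit with a shared spread per gene. When the 6 libraries at 0 h and the 30 later ones were fitted apart, an alternative chosen after seeing the data, 5414 of 5753 genes (94.1%) passed in the same direction and 13 in the opposite one.

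At single times, with 3 against 3 libraries, the share was smaller. At 4 h, 72.3% of the genes higher at 0 h passed as higher, beside 19.1% of all tested genes, and 77.5% of the genes lower at 0 h passed as lower, beside 22.3%. At 8 h the shares were 69.4% beside 18.5% for higher and 78.9% beside 24.3% for lower genes. At 12 h they were 72.4% beside 20.4% and 74.0% beside 24.3%. At 24 h, 73.8% of the higher genes passed again beside 17.9% of all, and 78.0% of the lower genes beside 21.3%. At 48 h it was 72.2% beside 19.2% and 77.4% beside 23.1%. The genes that passed again were not the same at each time, since 1571 of the higher and 2479 of the lower genes, 49.3% of those called at 0 h, passed in the same direction at all 5 later times. Calls in the direction opposite to 0 h were fewest at 24 h, with 16 genes, and most at 12 h, with 64. Of the genes that passed at 0 h, 197 higher and 210 lower ones passed in that direction at no later time. A further 8254 genes passed over the later times and not at 0 h, and 7018 of these had the same sign at 0 h.

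Whether a difference was particular to 0 h was tested as a change of the line difference, at 0 h minus the mean of the 5 later times. It passed for 76 genes (0.32%), 36 with a positive and 40 with a negative change, and 2361 had an unadjusted p under 0.05. Of the 76, 58 had passed at 0 h, beside 34.6% of all tested genes. Among those 58, 28 passed in the same direction later on, 23 with the larger difference at 0 h and 5 with the smaller. Another 20 passed at 0 h and not over the later times, 10 in each direction. The last 10 passed in opposite directions. The remaining 18 of the 76 passed over the later times alone. Over the later times, 67.3% of all tested genes passed. The change is computed from the difference at 0 h, so a pass and a larger difference at 0 h are partly set by the test itself. The labels do not give the hour of the day at which leaves were taken, and feeding and any difference in that hour cannot be told apart.

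**Figure D4:**
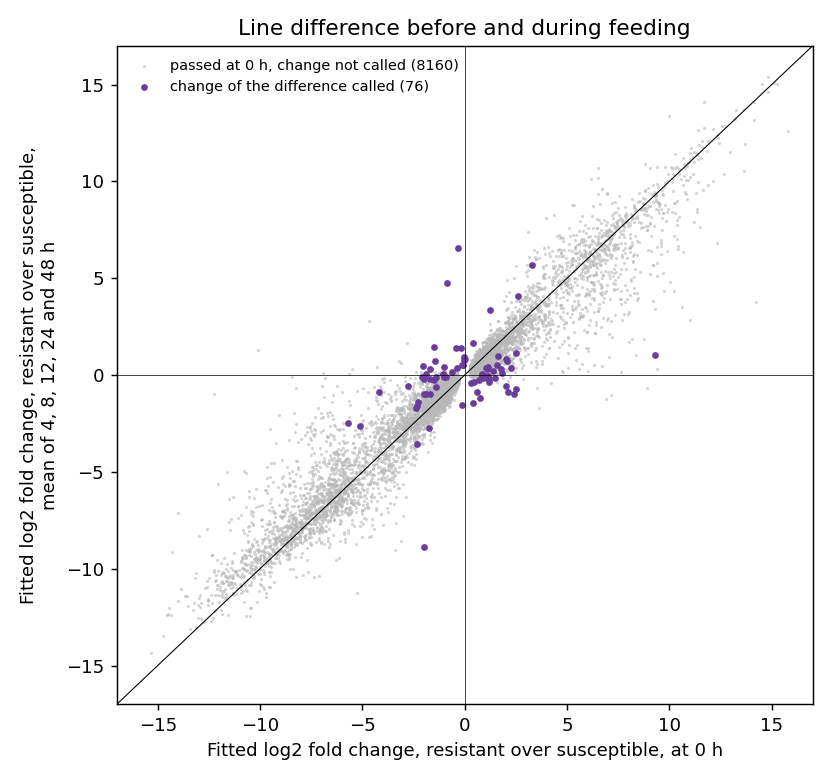
Fitted log2 fold change of the resistant over the susceptible line at 0 h (horizontal) and averaged over 4 to 48 h (vertical). Grey points are the 8160 genes that passed at 0 h and whose change of the line difference did not pass. Purple points are the 76 genes whose line difference changed, whether or not they passed at 0 h. Most grey points follow the black line of equal differences; fitted values of genes without a count in a line depend on the fit.

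The count of changed differences was sensitive to single libraries. It fell to 42 without resistant replicate 1 and to 47 without susceptible replicate 3 at 0 h. Of the 76 genes, 39 passed in each of those fits. Set against 24 and 48 h alone, the times that lie whole days after 0 h, the change passed for 139 genes, 42 of them among the 76. That contrast was chosen after seeing the data. By DESeq2 the change against all 5 later times passed for 337 genes, among them all 76.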

How the data were processed

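RNA of eggplant leaf was sequenced in 36 libraries, and the 6 at 0 h are compared here. Per the labels' protocols, the kit was SMARTER mRNA-Seq. The submitters' processing notes name FastQC and HTSeq 0.6.1; aligner, genome build and strand setting are not given in the sources used here. The authors deposited whole-number estimated counts per ID and an FPKM table with the first 65535 of the 89388 rows. Set against FPKM, deposited values of 1 had a median of 0.157 before rounding, and those of 2 a median of 1.42, so the values are estimates rounded up, and were used as deposited. Rows without an ID (3945) held 4.57 to 5.79% of the counts at 0 h and were left out of library sizes and of all tests of genes. Without strand and sequences, IDs that overlap or resemble each other may share reads.

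The fit used edgeR 4.0.16 in R 4.3.3: all 36 libraries, 1 mean per group, TMM, filterByExpr (23719 genes, 99.97% of counts), Benjamini-Hochberg adjustment at 0.05 over all genes. Standard errors were derived from the F statistic. CPM are estimated counts scaled to a common normalized library size, in the unit of that name. Floors of 3 counts per group cover counting error only. Libraries of a group differed far beyond sampling noise (chi-square per gene 81.1 to 162), so each counted as 1 sample. Alternatives were other size factors, filters, DESeq2 1.42.0, limma 3.58.1 on log2 FPKM, replicate blocks, lower rounding and left-out libraries. As IDs have no names, the rule named 4 IDs: in each direction the one of highest CPM among IDs without a count in the other line, and the one of largest fold among IDs with at least 1 CPM in each library at 0 h. Comparison, rules and tests were chosen with earlier results of these data known. No gene list was tested.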

Additional observations from a re-analysis of the deposited data

Results flagged for a closer look

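The line difference at 0 h was itself different from that over the 5 later times for 76 genes by edgeR's test of the change, 36 with a positive and 40 with a negative change. Of these genes, 72 had a count in every group of the series, as had 19894 of all 23719 tested. The test against a minimum of 2-fold at 0 h had been passed by 34 of them, and by 15.6% of all tested.

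Rows of the count table without an ID lay outside the comparison and also differed between lines at 0 h. Of 3301 such rows tested, 1598 (48.4%) passed edgeR's test, 478 higher and 1120 lower in the resistant line. Of those that passed, 29.9% were higher, against 44.0% among genes with an ID. Their share of the counts was 4.57 to 4.71% in resistant and 4.95 to 5.79% in susceptible libraries at 0 h. The rows cannot be tied to genes, and what they are was not tested.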

How the results depend on the processing

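All 68 recomputed values of the 4 named IDs kept their direction and passed, with adjusted p of at most 0.0214 by edgeR, DESeq2 or limma. These IDs had been picked as extremes of the same libraries, so this outcome was largely set in advance. Of 74 other values, 64 lay within 1.5 times of the reported one. That rule looked at the size of the value alone, not at the split by direction. The contrast over the later times does not contain the left-out libraries at 0 h, so it could move little without them. Beside the 8218 genes reported at 0 h, the fit of the 6 libraries with a replicate block gave 3146, and limma gave 4350 on log2(FPKM + 1), 4335 on log2(FPKM + 0.1) and 4249 on FPKM scaled by TMM, with 12461 genes or fewer tested by limma. Of these genes, 3004, 3719, 3733 and 3841 in the same order were among the 8218. Without a block the 6 libraries gave 5762. Left-out libraries at 0 h gave 7132 to 7296 genes at 0 h, 3292 to 3396 beyond 2-fold and 42 to 71 for the change (82 without resistant replicate 3 at 48 h), while DESeq2 gave 337 for the change and the contrast with 24 and 48 h 139. At 5 CPM in place of 1, the lists without a count held 134 IDs (resistant line at 0) and 48 (susceptible line at 0). Some of these settings had fewer genes or libraries, and the cause of the changes was not tested.

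Replicate numbers gave no sign of pairing the libraries at 0 h, though 3 libraries per line are too few to exclude it. Deviations of same-numbered libraries correlated at -0.01, 0.06 and 0.01, and each resistant library correlated more with another number. The replicate block on all 36 libraries gave 8243 genes at 0 h, 3603 beyond 2-fold and 66 for the change. Rounded-up values limit what can be said of genes near the floor, which was 0.0282 CPM in the resistant and 0.0263 CPM in the susceptible group. With 1 taken off each value above 0, 8150 genes passed at 0 h.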

Other observations

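The IDs carry a prefix followed by a gene number, and the files do not say what either stands for. The 23719 tested IDs fell under 8516 prefixes. In 12000 pairs of tested IDs with the same prefix and consecutive numbers, both passed at 0 h in the same direction in 6.98% of pairs and in opposite directions in 3.89%. Over all pairs of tested IDs these shares were 6.09% and 5.92%. For the test against a minimum of 2-fold, neighbours passed in the same direction in 271 pairs (2.26%), 61 higher and 210 lower in the resistant line, and in opposite directions in 76 (0.633%), against 1.34% and 1.10% over all pairs. The pairs are not independent of each other and no test was made. The 445 IDs without a count in the resistant line at 0 h were spread over 415 prefixes, with at most 3 under the same prefix, and the 151 without a count in the susceptible line over 148.

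No library at 0 h stood out for traces of the other line. Among IDs at 5 CPM or more in each library of the other line and without a count in the remaining libraries of its own group, 7.59 to 13.0% had a count in a given resistant library and 9.43 to 15.8% in a given susceptible library. The median level of these IDs was 0 in each of the 6 libraries.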
